A study of Rattus norvegicus with 39 samples.

Results

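Csad and Cdo1 encode the enzymes that make taurine from cysteine, and their transcripts were measured in CA1 tissue of the rat hippocampus under 4 levels or patterns of corticosterone. The pair was chosen on its measured differences between the groups in these data, so its levels and differences are given as a description. Where calls from a test of these differences are printed, they are part of that description and support nothing. Members were the probe sets whose platform annotation gave Csad or Cdo1 as the sole gene symbol, which yielded 4 of the 8799 probe sets in the table. Csad (Entrez gene 60356) had E13557cds_s_at and M64755_at, and Cdo1 (Entrez gene 81718) had rc_AA942685_at and E03229cds_s_at. All 4 passed the filter on low values, a mean log2 value of at least 6.28 over all arrays.

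The 39 Affymetrix arrays each measured 1 male rat of the strain Fisher 344, and all rats were 18 months old. LowInj rats (n = 10) had no adrenal glands, carried a pellet of 25 mg corticosterone and were also injected with corticosterone, 5 mg daily on the last 4 days. IntermediateCort rats (n = 9) were adrenalectomized and carried a 200 mg pellet. LowCort rats (n = 10) were adrenalectomized and carried the 25 mg pellet without injections. Sham rats (n = 10) kept their adrenal glands and carried an inert pellet. Pellets were in place for 3 months in every group. Saline with sucrose stayed the drinking fluid of rats with the 25 mg pellet. In LowInj and LowCort the drinking fluid cannot be told apart from the dose when they are set against the other groups. Between LowInj and LowCort the act of injection cannot be told apart from the corticosterone injected. In every comparison with Sham, the loss of the adrenal glands cannot be told apart from the dose of corticosterone. Comparisons that use the same group share its arrays.

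Taurine is among the most abundant free amino acids of the brain, where it serves as an osmolyte that cells take up or release with their volume, and where it acts on glycine and GABA type A receptors. Cdo1, cysteine dioxygenase, oxidises cysteine to cysteine sulfinate, which draws cysteine away from glutathione synthesis. Csad, cysteine sulfinate decarboxylase, removes the carboxyl group to give hypotaurine, which is then oxidised to taurine. In brain the pathway is known mainly from astrocytes, although neurons also carry Csad. Corticosterone, the main glucocorticoid of the rat, acts through the glucocorticoid and mineralocorticoid receptors, both abundant in CA1 neurons.

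In RefSeq's annotation of the assembly GRCr8, Csad lies on chromosome 7 from 135187175 to 135216495 with 18 transcripts, and Cdo1 on chromosome 18 from 41619076 to 41633719 with 1 transcript. The promoter of Csad, the gene of the pair matched in RefSeq's promoter table, is shown because glucocorticoid exposure differed between the groups. The promoter of Cdo1 was not analysed here. The 250 bases before its annotated start, chr7:135215582-135215831 on the minus strand, lie inside the annotated span of the gene, since other transcripts of Csad start farther upstream. Capitals mark the GC box, the hexamer GGGCGG read here as CCGCCC on the opposite strand.
Csad: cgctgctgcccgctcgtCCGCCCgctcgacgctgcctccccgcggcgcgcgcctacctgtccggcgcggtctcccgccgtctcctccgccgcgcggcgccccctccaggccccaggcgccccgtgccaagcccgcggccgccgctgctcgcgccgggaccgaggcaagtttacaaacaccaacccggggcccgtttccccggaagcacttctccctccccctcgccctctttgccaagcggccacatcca
Of these bases 76.0% were G or C, against a median of 51.2% over all 33469 promoters of the table. The GC box began 233 bases before the start, and 30.5% of all promoters held this hexamer on either strand. The hexamer AGAACA, read as TGTTCT on the opposite strand, which the glucocorticoid receptor binds in pairs, had 0 matches in this window and was present in 17.5% of all promoters. CCAAT, with its complement ATTGG, had 0 matches and was present in 34.0%. TATAAA, with its complement TTTATA, also had 0 matches and was present in 12.9%.

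Sgk1, a kinase gene that corticosteroids induce, served as a check of exposure. It averaged 8.05 ± 0.27 in LowInj, 8.64 ± 0.47 in IntermediateCort, 7.93 ± 0.17 in LowCort and 9.43 ± 0.59 in Sham (log2 values, mean ± SD). It fell in LowCort against Sham (log2 difference -1.50, SE 0.17, limma adjusted p = 2.9e-07) and in LowInj against Sham (-1.38, SE 0.17, adjusted p = 6.78e-06). It rose in IntermediateCort against LowCort (0.71, SE 0.18, adjusted p = 0.0213), a call lost without IntermediateCort rat 16 (0.66, adjusted p = 0.0568) or 19 (0.58, adjusted p = 0.0545). All 5 CA1 pyramidal markers on the array (Dcn, Nr3c2, Pou3f1, Itpka and Hpca) passed the filter on low values, and their differences are given with the other marker lists. LowInj and LowCort did not differ past the threshold in Sgk1 (0.12, SE 0.17, adjusted p = 0.883), nor did IntermediateCort and Sham (-0.79, SE 0.18, adjusted p = 0.165) or LowInj and IntermediateCort (-0.59, SE 0.18, adjusted p = 0.157). Arrays correlated at 0.975 to 0.997 within groups and at 0.974 to 0.998 between groups, and 0 pairs of arrays held identical values. Sham rat 6 and LowInj rats 34 and 35 had the lowest array weights in limma, between 0.281 and 0.339.

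Cdo1 was highest in IntermediateCort by both probe sets and lowest in LowCort by both. By E03229cds_s_at the LowInj rats ranged between 8.74 and 9.48 with a median of 9.16, and the IntermediateCort rats between 9.34 and 10.17 with a median of 9.56 (log2 values). The LowCort rats ranged between 8.85 and 9.44 with a median of 9.13, and the Sham rats between 9.01 and 9.76 with a median of 9.32. IntermediateCort overlapped every other group, yet 5 of its 9 rats lay above all LowCort rats and 9 of 9 lay above the LowCort mean. The means were 9.17 ± 0.23 in LowInj, 9.64 ± 0.29 in IntermediateCort, 9.12 ± 0.18 in LowCort and 9.32 ± 0.23 in Sham (SD).

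The second Cdo1 probe set, rc_AA942685_at, gave the same order of group means. The LowInj rats ranged between 10.13 and 11.12 (median 10.65), and the IntermediateCort rats reached 11.18 with a median of 10.88. The LowCort rats reached 10.70 (median 10.47), and the Sham rats ranged between 10.32 and 11.07 (median 10.71). LowCort was the tightest of the 4 groups, with an SD of 0.12, against 0.34 in LowInj, 0.28 in IntermediateCort and 0.24 in Sham. Here 6 of 9 IntermediateCort rats lay above all LowCort rats and 8 of 9 lay above the LowCort mean. The means were 10.61 in LowInj, 10.87 in IntermediateCort, 10.49 in LowCort and 10.65 in Sham.

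Set against LowCort, IntermediateCort was higher in Cdo1 by 0.52 on the log2 scale (SE 0.11, a fold of 1.44) by E03229cds_s_at and by 0.38 (SE 0.11, a fold of 1.30) by rc_AA942685_at. Set against Sham it was higher by 0.32 (SE 0.11) and by 0.22 (SE 0.11) by the same probe sets, and 9 of 9 rats lay above the Sham mean by E03229cds_s_at. LowCort was lower than Sham by both probe sets, with differences of -0.20 (SE 0.10) and -0.16 (SE 0.11). In bulk tissue, fewer cells that carry a transcript and less transcript per cell cannot be told apart.

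For Cdo1, LowInj minus LowCort was 0.05 (SE 0.10) by E03229cds_s_at and 0.12 (SE 0.11) by rc_AA942685_at. Against IntermediateCort, LowInj differed by -0.47 (SE 0.11, a fold of 1.39) by E03229cds_s_at, with 7 of 10 rats below all IntermediateCort rats. By rc_AA942685_at that difference was -0.26 (SE 0.11), and against Sham the LowInj differences were -0.15 (SE 0.10) by E03229cds_s_at and -0.04 by rc_AA942685_at.

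**Figure D1:**
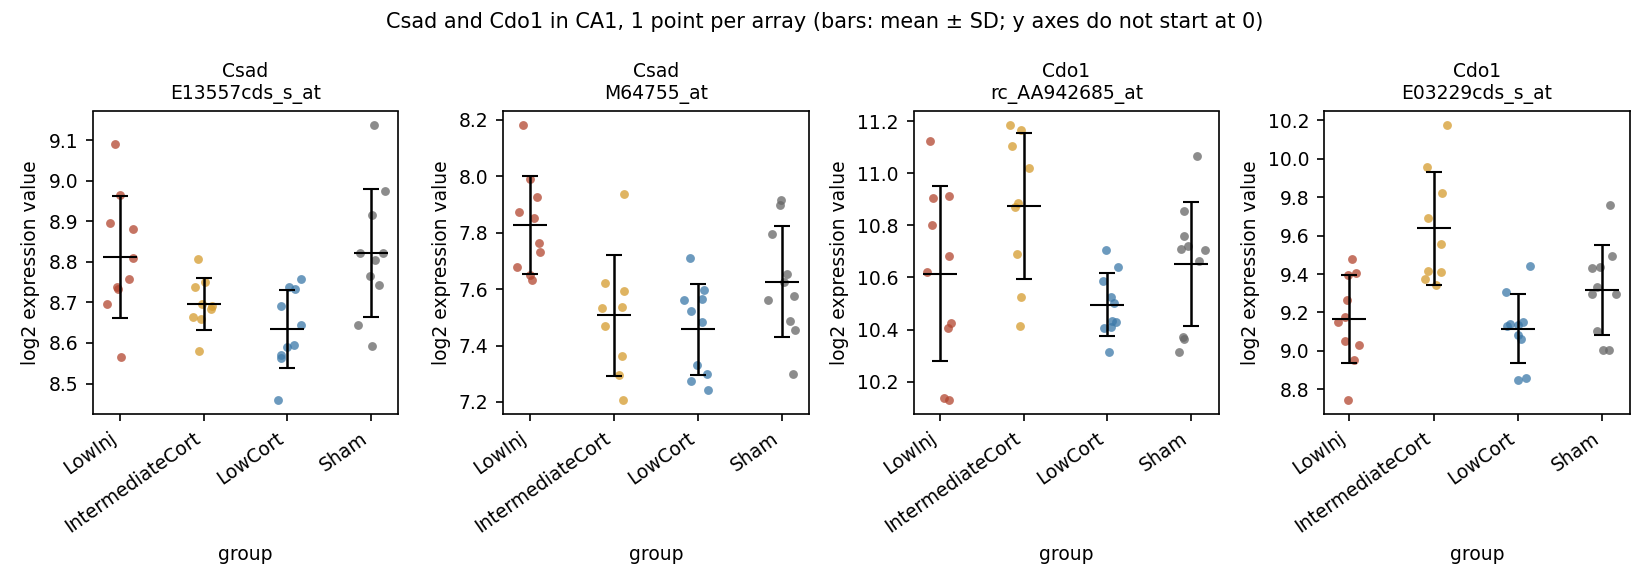
Log2 expression value of each rat (points) with the group mean and SD, for both Csad and both Cdo1 probe sets in LowInj, IntermediateCort, LowCort and Sham. The groups overlap in every panel, IntermediateCort is highest in both Cdo1 panels, and LowCort has the lowest mean in all 4.

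Csad, the next enzyme in the pathway, was also lowest in LowCort, but its high groups were LowInj and Sham. By E13557cds_s_at the LowInj rats ranged between 8.56 and 9.09 with a median of 8.78, and the IntermediateCort rats between 8.58 and 8.81 with a median of 8.69. The LowCort rats ranged between 8.46 and 8.76 with a median of 8.62, and the Sham rats between 8.59 and 9.14 with a median of 8.81. All 10 LowCort rats lay below the Sham mean, and 5 of 10 LowInj rats lay above every LowCort rat. The means were 8.81 ± 0.15 in LowInj, 8.70 ± 0.064 in IntermediateCort, 8.63 ± 0.096 in LowCort and 8.82 ± 0.16 in Sham (SD).

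By M64755_at the LowInj rats ranged between 7.63 and 8.18 with a median of 7.81, and the IntermediateCort rats between 7.21 and 7.94 with a median of 7.53. The LowCort rats ranged between 7.24 and 7.71 with a median of 7.50, and the Sham rats between 7.30 and 7.92 with a median of 7.60. Each of the 10 LowInj rats lay above the means of IntermediateCort, LowCort and Sham, and 7 of 10 lay above all LowCort rats. The means were 7.83 ± 0.17 in LowInj, 7.51 ± 0.21 in IntermediateCort, 7.46 ± 0.16 in LowCort and 7.63 ± 0.20 in Sham (SD). LowInj rat 34, of low array weight, held the highest LowInj value of both Csad probe sets, and Sham rat 6 the highest Sham value of E13557cds_s_at.

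Set against LowCort, LowInj was higher in Csad by 0.37 on the log2 scale (SE 0.082, a fold of 1.29) by M64755_at and by 0.18 (SE 0.057, a fold of 1.13) by E13557cds_s_at. Against Sham the probe sets parted, with a LowInj difference of 0.20 (SE 0.082) by M64755_at and -0.01 (SE 0.057) by E13557cds_s_at. LowCort was lower than Sham by both, with differences of -0.17 (SE 0.082) by M64755_at and -0.19 (SE 0.057) by E13557cds_s_at.

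IntermediateCort did not share in Csad the high level it had in Cdo1. Its difference from LowCort was 0.05 (SE 0.084) by M64755_at and 0.06 (SE 0.059) by E13557cds_s_at, and its difference from Sham was -0.12 (SE 0.084) and -0.13 (SE 0.059) by the same probe sets. LowInj exceeded IntermediateCort by 0.32 (SE 0.084, a fold of 1.25) by M64755_at and by 0.12 (SE 0.059) by E13557cds_s_at.

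**Figure D2:**
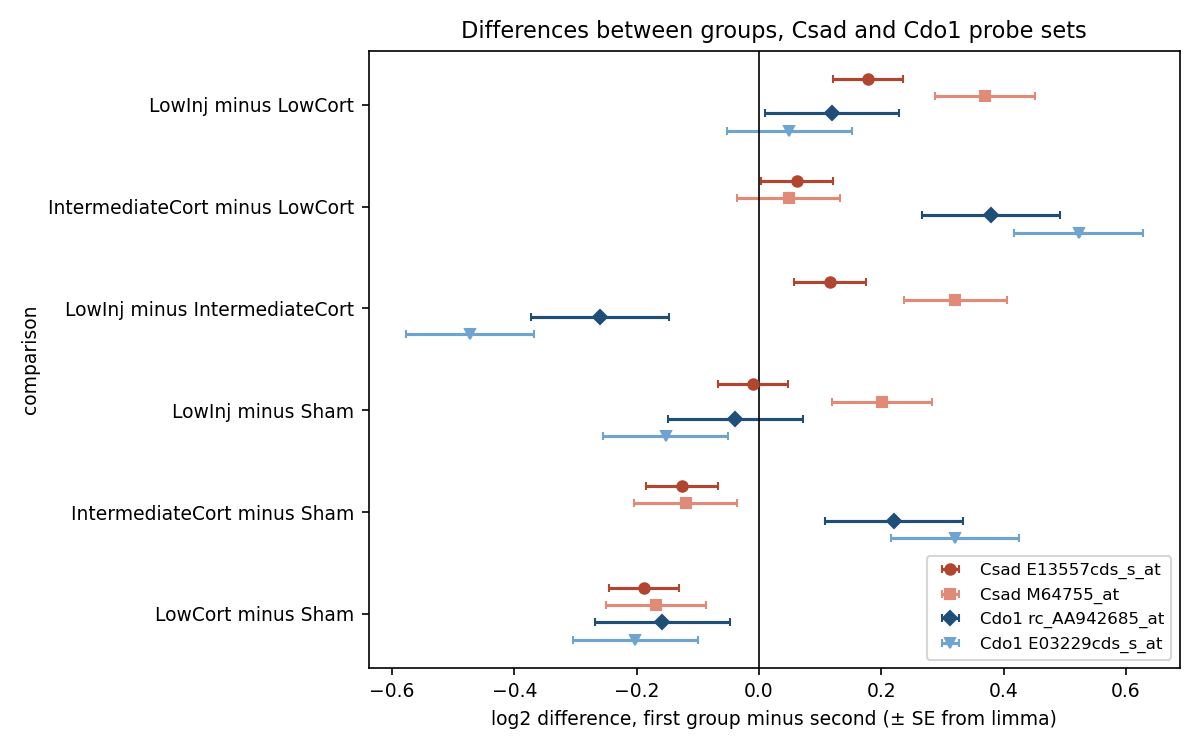
Log2 differences between groups for both Csad and both Cdo1 probe sets in the 6 comparisons, with bars of 1 SE from limma. All 4 probe sets lie below 0 in LowCort minus Sham, and Csad and Cdo1 lie on opposite sides of 0 in LowInj minus IntermediateCort.

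Ordered by their means, most neighbouring groups differed by less than the pooled SD within groups. For E13557cds_s_at the order was Sham, LowInj, IntermediateCort and LowCort, and each step was within the pooled SD of 0.125. For M64755_at it was LowInj, Sham, IntermediateCort and LowCort, and only the step between LowInj and Sham (0.201) exceeded the pooled SD of 0.186. Both Cdo1 probe sets ran IntermediateCort, Sham, LowInj and LowCort. The step between IntermediateCort and Sham exceeded the pooled SD by E03229cds_s_at (0.321 against 0.236) and not by rc_AA942685_at (0.221 against 0.255).

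Over all 24 differences of the 4 probe sets, 3 passed limma's threshold of an adjusted p under 0.05, 2 of 12 for Cdo1 and 1 of 12 for Csad. The pair was chosen on these differences, so these calls and the shares given beside them are a description and support nothing. In IntermediateCort against LowCort 1 of 4 passed (E03229cds_s_at, higher), where 2.14% of all 6118 probe sets tested did. In LowInj against LowCort 1 of 4 passed (M64755_at, higher), where 0.343% of all did. In LowInj against IntermediateCort 1 of 4 passed (E03229cds_s_at, lower), where 0.196% of all did. None of the 4 passed in LowCort against Sham (1.68% of all), IntermediateCort against Sham (0.0163%) or LowInj against Sham (0.229%). The median log2 difference over all probe sets lay between -0.00622 and 0.015 in the 6 comparisons.

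Rats of the same group differed in both genes, and these deviations from the group means did not enter the choice of the genes. They were compared by correlation over the 39 arrays, with 100000 permutations within groups, two-sided, and adjustment over 18 relations. The Cdo1 probe sets went together (r = 0.454, permutation p = 0.00803, adjusted p = 0.0338; Spearman's rho = 0.418, p = 0.0144, adjusted p = 0.0288). Without the 2 arrays farthest from the median r was 0.347, and within groups r was 0.457 in LowInj, 0.639 in IntermediateCort, 0.107 in LowCort and 0.398 in Sham.

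The Csad probe sets showed no such relation. Their r was 0.0781 (permutation p = 0.649, adjusted p = 0.649) and their rho -0.0498 (p = 0.769, adjusted p = 0.769), and r was 0.0287 without the 2 farthest arrays. Within groups r was 0.116 in LowInj, -0.12 in IntermediateCort, -0.205 in LowCort and 0.278 in Sham. A relation between the Csad and the Cdo1 probe set of highest mean, E13557cds_s_at and rc_AA942685_at, was negative and missed the adjusted threshold. Its r was -0.347 (permutation p = 0.0492, adjusted p = 0.0886) and its rho -0.352 (p = 0.036, adjusted p = 0.0648), and r was -0.266 without the 2 farthest arrays. It was -0.67 in LowInj, -0.315 in IntermediateCort, 0.329 in LowCort and -0.212 in Sham, so the sign was not shared by all groups. The sign also depended on the probe sets taken, with r = 0.0962 (permutation p = 0.567, adjusted p = 0.6) for E13557cds_s_at with E03229cds_s_at, 0.338 (p = 0.0475, adjusted p = 0.0886) for M64755_at with rc_AA942685_at and -0.142 (p = 0.429, adjusted p = 0.483) for M64755_at with E03229cds_s_at.

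Signs of RNA or cDNA length moved with the members. For each array the control probe sets at the 3′ end of beta-actin or Gapdh minus those at the 5′ end measure how far labelling reached along the transcript. The 2 controls can part, as in LowInj rat 35, with a Gapdh difference of 2.41 and a beta-actin difference of 0.0429. E13557cds_s_at of Csad was lower in rats with a larger beta-actin difference (r = -0.588, permutation p = 0.00053, adjusted p = 0.00954; rho = -0.57, p = 0.00043, adjusted p = 0.00774). The relation kept its sign without the 2 farthest arrays (r = -0.517) and in LowInj (-0.696), LowCort (-0.676) and Sham (-0.647), and was 0.0773 in IntermediateCort. Sham rat 6 and LowInj rat 34, of low array weight, had beta-actin differences of 0.0976 and 0.17, below their group means. They also held the highest E13557cds_s_at values of their groups.

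The Cdo1 probe sets related to the beta-actin difference with opposite signs. For E03229cds_s_at r was -0.415 (permutation p = 0.00998, adjusted p = 0.0338; rho = -0.432, p = 0.00801, adjusted p = 0.0206), -0.479 without the 2 farthest arrays, and -0.138, -0.383, -0.903 and -0.649 in LowInj, IntermediateCort, LowCort and Sham. For rc_AA942685_at r was 0.452 (permutation p = 0.0113, adjusted p = 0.0338; rho = 0.451, p = 0.00725, adjusted p = 0.0206), 0.289 without the 2 farthest arrays, and 0.659, 0.385, 0.131 and 0.251 in the same groups. M64755_at of Csad gave r = 0.297 (permutation p = 0.0708, adjusted p = 0.106; rho = 0.31, p = 0.0626, adjusted p = 0.0867).

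**Figure D3:**
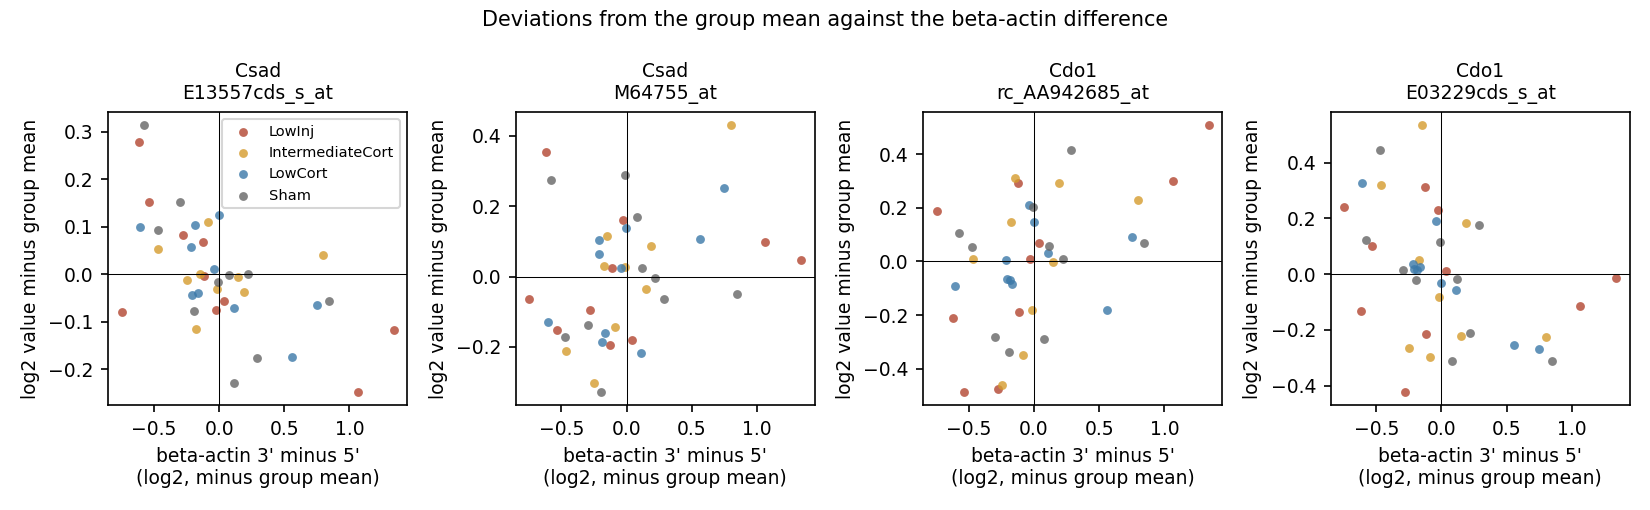
Deviation of each rat from its group mean in each Csad and Cdo1 probe set (vertical, log2) against its deviation in the beta-actin 3′ minus 5′ difference (horizontal, log2). Over the 39 arrays r is -0.588 for E13557cds_s_at, 0.297 for M64755_at, 0.452 for rc_AA942685_at and -0.415 for E03229cds_s_at.

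The Gapdh difference related to rc_AA942685_at (r = 0.452, permutation p = 0.015, adjusted p = 0.0338; rho = 0.513, p = 0.00168, adjusted p = 0.0132; r = 0.422 without the 2 farthest arrays). For M64755_at its rho passed (0.455, p = 0.00368, adjusted p = 0.0132) and its r did not (0.295, p = 0.0642, adjusted p = 0.105). The rank of a rat's subject number within its group, whose meaning the labels do not give, related to 3 of the 4 probe sets. It gave r = -0.453 for E13557cds_s_at (permutation p = 0.00597, adjusted p = 0.0338; rho = -0.487, p = 0.00338, adjusted p = 0.0132), and r = -0.427 without the 2 farthest arrays. It gave r = 0.5 for rc_AA942685_at (permutation p = 0.0018, adjusted p = 0.0162; rho = 0.486, p = 0.00277, adjusted p = 0.0132) and r = 0.401 for M64755_at (permutation p = 0.0146, adjusted p = 0.0338; rho = 0.409, p = 0.0136, adjusted p = 0.0288). Without the 2 farthest arrays these were 0.456 and 0.434. Within LowInj, IntermediateCort, LowCort and Sham, r with subject order was -0.691, 0.0802, -0.328 and -0.531 for E13557cds_s_at. In the same groups it was 0.793, 0.534, -0.17 and 0.504 for rc_AA942685_at, and 0.341, 0.847, 0.416 and 0.0694 for M64755_at. E03229cds_s_at gave r = -0.164 (permutation p = 0.332, adjusted p = 0.427).

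The groups overlapped in these measures. The beta-actin difference averaged 0.787 ± 0.688 in LowInj, 0.652 ± 0.359 in IntermediateCort, 0.928 ± 0.395 in LowCort and 0.675 ± 0.415 in Sham. The Gapdh difference averaged 1.03 ± 0.601 in LowInj, 0.63 ± 0.214 in IntermediateCort, 0.807 ± 0.237 in LowCort and 0.696 ± 0.22 in Sham (SD). With both as covariates the IntermediateCort minus LowCort difference of Cdo1 was 0.47 by each probe set, and the LowInj minus LowCort difference of Csad by M64755_at was 0.36. Over 7 other settings of the fit, these covariates among them, E13557cds_s_at of Csad ranged between -0.188 and -0.148 in LowCort minus Sham. In IntermediateCort minus LowCort E13557cds_s_at ranged between 0.019 and 0.062, and in LowInj minus LowCort between 0.154 and 0.179.

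The genes whose values ran most like those of Csad and Cdo1 over the 39 arrays were taken from 5061 other probe sets with 1 symbol, for the probe set of highest mean of each gene. With group means removed, E13557cds_s_at of Csad was most like Htr3a, a serotonin receptor channel of interneurons (r = 0.873), then Ndufs8 (0.798), Lama5 (0.788), Pnoc (0.784) and Wdr62 (0.778). With values as they stand the closest were Htr3a (0.894), Lama5 (0.85), Ddr1 (0.818), Pnoc (0.807) and Kcnj4 (0.777). By the first measure, 2432 of the other probe sets had a higher r with E13557cds_s_at than the other Csad probe set did. For rc_AA942685_at of Cdo1 the closest with group means removed were S100a10 (0.747), Tpp2 (0.744), Emb (0.695), Psma7 (0.694) and Homer1 (0.692). With values as they stand they were S100a10 (0.811), Tpp2 (0.753), Ifrd1 (0.72), Wipf3 (0.714) and Bud31 (0.696). The other Cdo1 probe set was exceeded by 266 probe sets by the first measure and by 30 by the second. All these values share the arrays and their quality, and they are a description without a test.

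Among the other genes of taurine synthesis, use and transport, 12 of 18 listed were on the array and 8 passed the filter on low values. Gad1, the glutamate decarboxylase that makes GABA and belongs to the same enzyme family as Csad, was the 1 that changed. It ranged between 9.80 and 10.26 in LowCort (median 10.05) and between 10.15 and 10.49 in Sham (median 10.35), so the groups overlapped at their edges. Gad1 fell in LowCort against Sham (-0.31, SE 0.068, a fold of 1.24, limma adjusted p = 0.00758), with means of 10.03 ± 0.14 and 10.34 ± 0.10 (SD, n = 10 each). In that comparison 7 of the 8 genes had a negative difference, with a median of -0.101 on the log2 scale, against -0.00622 over all probe sets. Gad1 also stands among the interneuron markers, of which 2 of 8 fell in LowCort against Sham, Gad1 and Calb2 (-0.23, SE 0.053, adjusted p = 0.0135). Of all probe sets tested 1.68% passed in that comparison. The part of interneuron number in this result was not tested.

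Slc6a6, the transporter that brings taurine into cells, had the opposite sign. It averaged 7.58 ± 0.31 in LowCort and 7.23 ± 0.40 in Sham, a difference of 0.35 (SE 0.14) that did not pass (adjusted p = 0.218). Got1, an aspartate aminotransferase that can turn cysteine sulfinate away from taurine, differed by -0.18 (SE 0.059, adjusted p = 0.104) between LowCort and Sham and by 0.18 (SE 0.060, adjusted p = 0.132) between IntermediateCort and LowCort. The other 5 comparisons had 0 of 8 past the threshold. Medians of the 8 genes there were -0.00251 in IntermediateCort minus Sham, -0.0367 in LowInj minus Sham, 0.0856 in IntermediateCort minus LowCort, 0.06 in LowInj minus LowCort and 0.0296 in LowInj minus IntermediateCort. Differences were positive for 6 of 8 genes in IntermediateCort minus LowCort and for 7 of 8 in LowInj minus LowCort. Ado, which makes hypotaurine from cysteamine, was among the 6 listed genes for which no probe set carried that symbol alone.

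**Figure D4:**
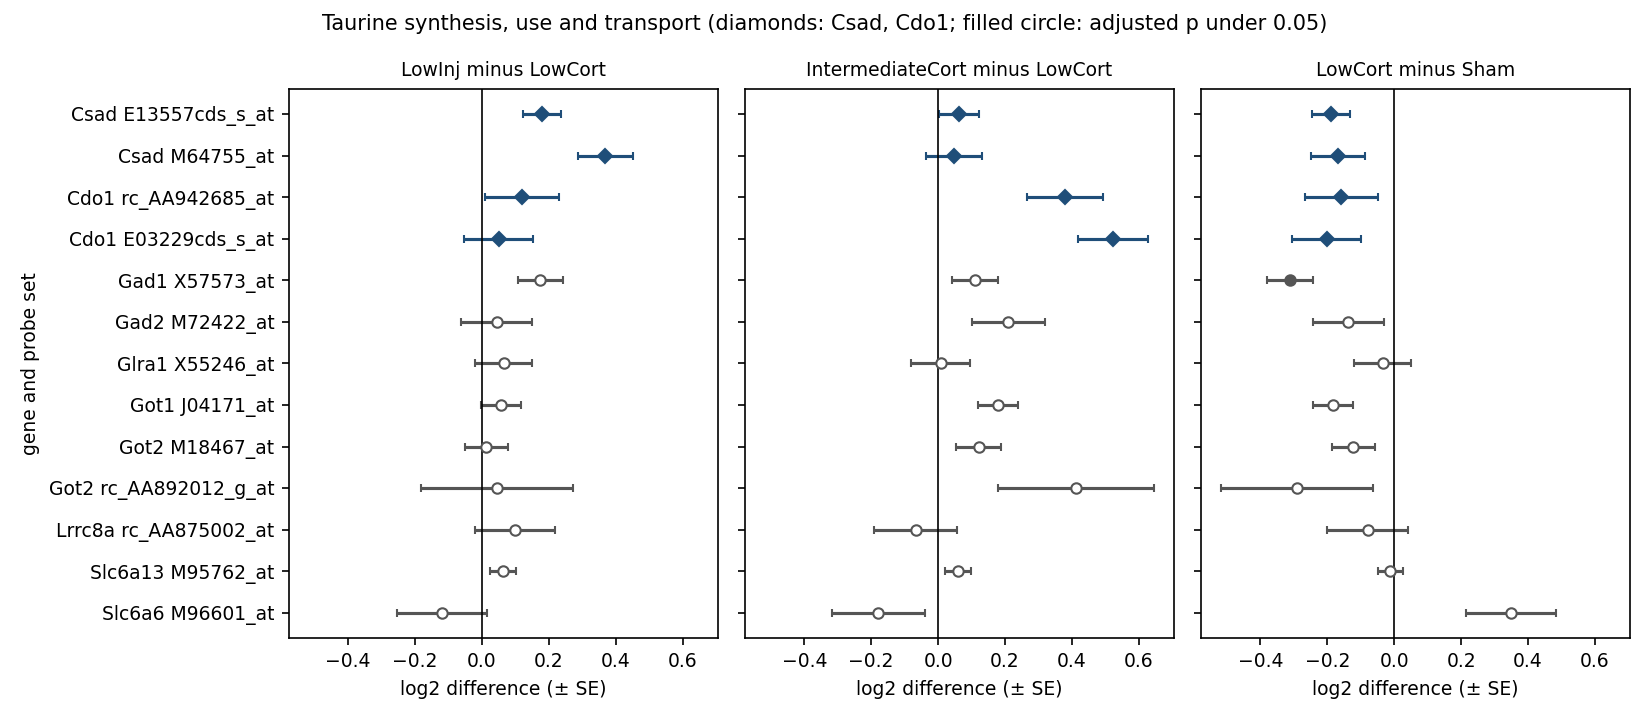
Log2 differences (horizontal, bars of 1 SE from limma) of the probe sets of the taurine list in LowInj minus LowCort, IntermediateCort minus LowCort and LowCort minus Sham. Diamonds are Csad and Cdo1, drawn without their calls, circles are the other genes, and the 1 filled circle is Gad1 in LowCort minus Sham.

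Of 20 listed genes of cysteine supply and sulphur amino acid metabolism, 14 were on the array, 12 passed the filter, and 0 passed limma's threshold in any of the 6 comparisons. Unadjusted counts over all probe sets at p under 0.05 ran from 258 in IntermediateCort against Sham to 835 in LowCort against Sham. Cbs, which joins homocysteine and serine in the first step toward cysteine, differed by -0.18 (SE 0.057, adjusted p = 0.105) between LowCort and Sham. It differed by 0.17 (SE 0.058, adjusted p = 0.122) between IntermediateCort and LowCort. Its signs were those of Cdo1, Csad and Got1 in both comparisons, which share the LowCort arrays. Mpst, which takes sulphur from mercaptopyruvate, and Tst, which passes sulphur from thiosulfate to cyanide, differed by 0.15 (adjusted p = 0.499) and -0.18 (adjusted p = 0.506) between LowInj and LowCort.

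Glutathione synthesis is the other main use of cysteine. All 12 listed genes were on the array, 11 passed the filter and 0 passed the threshold in any comparison. Gclc, the catalytic subunit of the rate-limiting ligase, differed by -0.30 (SE 0.11, adjusted p = 0.281) between LowInj and IntermediateCort. Gpx1, a glutathione peroxidase, differed by 0.33 (SE 0.093, adjusted p = 0.12) in that comparison and by -0.28 (SE 0.093, adjusted p = 0.122) between IntermediateCort and LowCort by X07365_s_at, its probe set of highest mean.

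Of 14 listed genes of osmolyte transport and osmotic response, 8 were on the array and 6 passed the filter. Sgk1, described above, was the 1 that passed the threshold, in 3 of the 6 comparisons. Of all probe sets tested 1.68% passed in LowCort against Sham, 0.229% in LowInj against Sham and 2.14% in IntermediateCort against LowCort. Slc5a3, the carrier of the osmolyte myo-inositol, differed by 0.09 (SE 0.078, adjusted p = 0.736) between IntermediateCort and LowCort and by -0.17 (SE 0.078, adjusted p = 0.379) between LowInj and IntermediateCort.

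Marker lists of the cell types that CA1 tissue holds were set beside the members, as mean deviations of each list from its average over all arrays. For the counts of markers that passed, the share of all probe sets was 1.68% in LowCort against Sham and 2.14% in IntermediateCort against LowCort. It was 0.343% in LowInj against LowCort and 0.196% in LowInj against IntermediateCort. The astrocyte list (15 of 21 genes tested) averaged -0.0228 in LowInj, 0.0262 in IntermediateCort, -0.0602 in LowCort and 0.0593 in Sham, with values per rat from -0.216 to 0.206. Agt, the angiotensinogen gene of astrocytes, was the 1 astrocyte marker that changed. It fell in LowCort against Sham (-0.41, SE 0.089, limma adjusted p = 0.00773), with means of 9.73 ± 0.22 and 10.14 ± 0.18. It rose in LowInj against LowCort (0.38, SE 0.089, adjusted p = 0.037), with means of 10.12 ± 0.24 and 9.73 ± 0.22. That call held in 6 of the 20 fits that left out an array of these groups, with adjusted p between 0.00634 and 0.0926. Agt did not pass in IntermediateCort against LowCort, although it was higher by 0.24 to 0.32 over 7 other settings and passed in 3 of them. The part of astrocyte content in the Csad and Cdo1 differences was not tested.

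CA1 pyramidal markers (5 of 10 tested) averaged 0.0448 ± 0.218 in LowInj, 0.0453 ± 0.166 in IntermediateCort, -0.0296 ± 0.11 in LowCort and -0.056 ± 0.21 in Sham (mean deviation ± SD). In LowCort against Sham 2 of 5 rose, Dcn (0.42, SE 0.098, limma adjusted p = 0.0135) and the mineralocorticoid receptor gene Nr3c2 (0.44, SE 0.11, adjusted p = 0.0218, a call kept in 20 of 27 other fits, which are 7 other settings and 20 fits without 1 array). In LowCort against Sham 3 of the 5 had a negative difference, opposite to Dcn and Nr3c2, and the median was -0.0127. Of all probe sets tested 1.68% passed in LowCort against Sham and 2.14% in IntermediateCort against LowCort. In IntermediateCort against LowCort 3 of 5 CA1 markers changed. The calcium signalling genes Itpka (0.58, SE 0.13, adjusted p = 0.00982) and Hpca (0.53, SE 0.12, adjusted p = 0.00632) rose there, and Dcn fell (-0.48, SE 0.10, adjusted p = 0.00412). By the probe set of highest mean, 0 of 5 passed in LowInj against LowCort, IntermediateCort or Sham, or in IntermediateCort against Sham. Another Dcn probe set, rc_AI639233_s_at, passed in LowInj against LowCort (-0.46, SE 0.11, adjusted p = 0.0385).

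The neuron list (6 of 9 tested) averaged -0.0898 ± 0.238 in LowInj, 0.116 ± 0.198 in IntermediateCort, -0.0541 ± 0.241 in LowCort and 0.0397 ± 0.207 in Sham. Of its 6 genes 1 passed, in 1 comparison, Camk2a in LowInj against IntermediateCort (-0.57, SE 0.12, adjusted p = 0.0251, a call kept in 20 of 26 other fits). Markers of dentate granule, CA3 or CA2 neurons (6 of 11 tested) averaged -0.00243 ± 0.107 in LowInj and 0.0833 ± 0.083 in IntermediateCort. They averaged -0.144 ± 0.143 in LowCort and 0.0713 ± 0.112 in Sham. Calb1, calbindin, which some CA1 pyramidal neurons also carry, was the 1 of 6 that changed, falling in LowCort against Sham (-0.61, SE 0.11, adjusted p = 0.000457) and rising in IntermediateCort against LowCort (0.60, SE 0.11, adjusted p = 0.000904). The interneuron list (8 of 11 tested) averaged 0.0065 ± 0.0726 in LowInj and 0.0299 ± 0.112 in IntermediateCort. It averaged -0.0939 ± 0.0885 in LowCort and 0.0605 ± 0.0632 in Sham, and 7 of 8 differences were negative in LowCort minus Sham. LowCort was the lowest group in this list, as in the dentate and astrocyte lists.

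The endothelial and pericyte list (9 of 13 tested) averaged 0.037 ± 0.0755 in LowInj, -0.0847 ± 0.0868 in IntermediateCort, 0.0968 ± 0.075 in LowCort and -0.0576 ± 0.0509 in Sham. Its transporter gene Slco1a4 rose in LowCort against Sham (0.56, SE 0.098, adjusted p = 0.000421), and Slco1a4 and Kcnj8 fell in IntermediateCort against LowCort, Kcnj8 with a call kept in 12 of 26 other fits. The microglia and macrophage list (9 of 13 tested) averaged 0.0424 ± 0.0851 in LowInj, -0.0729 ± 0.0671 in IntermediateCort, 0.0524 ± 0.0724 in LowCort and -0.0292 ± 0.0387 in Sham. Fcgr2b rose in LowCort against Sham (0.54, SE 0.10, adjusted p = 0.000951) and fell in IntermediateCort against LowCort together with Cd53. By probe sets of highest mean it was the 1 of 9 that passed in LowCort against Sham, where 5 differences were positive and 4 negative. Aif1 passed in both comparisons by U10894_s_at, which was not its probe set of highest mean (0.53, adjusted p = 0.0396, and -0.54, adjusted p = 0.0335).

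The fibroblast list (9 of 10 tested) averaged 0.0576 ± 0.0688 in LowInj, -0.0591 ± 0.0514 in IntermediateCort, 0.0174 ± 0.0518 in LowCort and -0.0218 ± 0.0584 in Sham. Dcn, which the CA1 list holds too, and Mgp rose in LowCort against Sham and fell in IntermediateCort against LowCort. These were 2 of 9 in LowCort against Sham, where 6 of 9 had a negative difference (median -0.0207), the sign opposite to theirs. The oligodendrocyte list averaged -0.0389 ± 0.2 in LowInj, -0.0328 ± 0.159 in IntermediateCort, 0.0461 ± 0.182 in LowCort and 0.0224 ± 0.155 in Sham. The choroid plexus list averaged 0.0385 ± 0.114 in LowInj and -0.0692 ± 0.0925 in IntermediateCort, and 0.0318 ± 0.0811 in LowCort and -0.00807 ± 0.0833 in Sham. Of 8 oligodendrocyte markers Klk6 rose in LowCort against Sham, and Klk6 and Cnp fell in IntermediateCort against LowCort. Of 4 choroid plexus markers Enpp2 did the same as Klk6, although its LowCort against Sham call was kept in 11 of 27 other fits. Igfbp2 of that list fell in LowCort against Sham by J04486_at, which was not its probe set of highest mean (-0.19, SE 0.050, adjusted p = 0.0409). In LowInj against LowCort, Klk6 and Fcgr2b fell, with calls kept in 18 and 13 of 27 other fits.

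Blood cell markers (3 of 6 tested) averaged 0.415 ± 0.438 in LowInj, -0.219 ± 0.418 in IntermediateCort, -0.0997 ± 0.401 in LowCort and -0.119 ± 0.227 in Sham. Alas2 was the 1 of 3 that passed, higher in LowInj against LowCort (0.31, SE 0.071, adjusted p = 0.037), a call kept in 15 of 27 other fits. No test was run on a list as a whole, and the part of these lists in the Csad and Cdo1 differences was not tested.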

How the data were processed

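Total RNA of CA1 tissue from each of 39 rats was turned into biotin-labelled cRNA and hybridised to 1 array, per the labels' protocols. The deposited table holds log2 expression values made by the authors, between 2.82 and 14.37, with array medians between 7.27 and 7.33. Per the submitters' processing notes the tools listed were MAS5, RMA and R 2.7.1, with no role stated. The step that gave the deposited log2 values was not given in the sources used here, nor were batches or scan dates. No further normalization was applied. Tests omitted the 59 control probe sets, and probe sets with a mean at or above the 30th percentile (6.28) were tested, 6118 in all. Of the 8740 other probe sets, 7006 carried 1 symbol, 308 several and 1426 none in the platform annotation, and genes were named only from probe sets with 1.

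Differences were computed by limma 3.58.1 (R 4.3.3) from a model of group means over all 39 arrays, 35 residual degrees of freedom, and Benjamini-Hochberg adjustment over the 6118 probe sets, two-sided at 0.05. Differences are those of log2 values, with SE from limma. In gene lists the probe set of highest mean stood for a gene. Correlations used deviations from group means and Python 3.11.15 with scipy 1.17.1. Both scripts were tested on simulated data. Levels of different probe sets are not comparable. The number of arrays limits precision, and each p compares animals. The members, the lists and the rule for naming genes (every member probe set, list genes that passed or had the smallest p, and the 5 closest patterns per gene) were chosen with earlier results of these data known. Cell type markers were named after their values were seen. Promoter sequence is RefSeq's, build GRCr8. Other settings tried were filters, array centring, covariates, array weights, a variance trend, fits of only the groups compared, and leaving out arrays.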

Additional observations from a re-analysis of the deposited data

How the results depend on the processing

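No paired analysis was possible because each subject number belongs to 1 rat of 1 group. The pair was chosen on its group differences, so its calls and their number across settings describe the processing and support nothing. Over 7 other settings and with each array left out in turn, 0 called differences of Csad or Cdo1 changed sign. Some differences that were not called did. By E03229cds_s_at, LowInj minus LowCort ranged between -0.07 and 0.05 over the settings and kept its sign in 6 of 7. LowCort was thus not the lowest group in Cdo1 in every setting. The Cdo1 difference of IntermediateCort minus LowCort by E03229cds_s_at passed in 7 of 7 settings and in 19 of 19 fits without an array, between 0.46 and 0.56. The Csad difference of LowInj minus LowCort by M64755_at ranged between 0.33 and 0.40 without an array and passed in 15 of 20 fits, losing its call without LowCort rat 20, 21 or 27 or LowInj rat 34 or 37. The Cdo1 difference of LowInj minus IntermediateCort by E03229cds_s_at ranged between -0.51 and -0.41 and passed in 9 of 19 fits (adjusted p 0.0163 to 0.123). Its call was lost without IntermediateCort rat 12, 13, 16, 17 or 18 or LowInj rat 31, 32, 34, 36 or 38. By rc_AA942685_at, IntermediateCort minus LowCort ranged between 0.34 and 0.44 and passed without IntermediateCort rat 11 or 15. Csad E13557cds_s_at in LowCort minus Sham ranged between -0.21 and -0.15 and passed without Sham rat 9. M64755_at in LowInj minus IntermediateCort ranged between 0.28 and 0.37 and passed without IntermediateCort rat 19.

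With only the groups compared in the fit, E03229cds_s_at in LowInj minus IntermediateCort was -0.47 and lost its call (adjusted p = 0.156), and rc_AA942685_at in IntermediateCort minus LowCort was 0.38 and gained one (0.0223). That probe set also passed with the 3′ to 5′ covariates (0.47, adjusted p = 0.00424), with subject order (0.40, 0.0168) and with array weights (0.36, 0.0345). E13557cds_s_at in LowCort minus Sham passed with subject order (-0.19, adjusted p = 0.0343), and M64755_at in LowInj minus IntermediateCort with array weights (0.29, 0.0173). Without the 3 arrays of weight under 0.35, a setting chosen after seeing the data, M64755_at in LowInj minus LowCort was 0.33 and lost its call (adjusted p = 0.0616). Since the pair was chosen on these differences, its gained and lost calls describe the processing and support nothing. The cause of these changes was not tested. Fits of only the groups compared use fewer arrays and estimate the spread from those groups alone.

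Counts of probe sets moved by over 1.5 times in 21 of 54 cases. With means at or above the median they were 5 in LowInj minus Sham (14 as reported) and 6 in LowInj minus IntermediateCort (12 as reported). With only the groups compared they were 4 in IntermediateCort minus Sham (1 as reported), 1 in LowInj minus Sham and 0 in LowInj minus IntermediateCort, where limma gave 699 at an unadjusted p under 0.05 over all arrays. With the 3′ to 5′ covariates they were 175 in LowCort minus Sham (103 as reported), 12 in IntermediateCort minus Sham, 22 in LowInj minus Sham and 19 in LowInj minus IntermediateCort. With subject order they were 185 in LowCort minus Sham, 2 in IntermediateCort minus Sham, 30 in LowInj minus Sham, 36 in LowInj minus LowCort (21 as reported) and 21 in LowInj minus IntermediateCort. With array weights they were 170 in LowCort minus Sham, 2 in IntermediateCort minus Sham, 33 in LowInj minus Sham, 338 in IntermediateCort minus LowCort (131 as reported), 50 in LowInj minus LowCort and 105 in LowInj minus IntermediateCort. Without the arrays of low weight IntermediateCort minus Sham had 2. The correlation between Csad and Cdo1, -0.347, was reversed with other probe sets, to 0.0962 for E13557cds_s_at with E03229cds_s_at and to 0.338 for M64755_at with rc_AA942685_at, was -0.142 for M64755_at with E03229cds_s_at, and was -0.0995 with the 3′ to 5′ covariates.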
